A study of Homo sapiens with 6 samples.

Results

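The genes of the EIF4E family, the EIF4E-binding proteins and the partners that form eIF4F were followed in KYSE30, an established human oesophageal squamous carcinoma line. They were taken by symbol from the deposited array table: EIF4E, EIF4E2, EIF4E3, EIF4EBP1, EIF4EBP2, EIF4EBP3, EIF4G1, EIF4G2, EIF4G3 and EIF4A1. All 10 were found, in 27 of the 34558 array rows, each row standing for 1 RefSeq transcript. The table as a whole resolved to 19148 genes. Samples 1 to 3 had received a negative control siRNA and samples 4 to 6 an siRNA against MTA2, a subunit of the NuRD histone deacetylase complex, both for 48 h at 20 nmol/ml (the dose as the labels print it) with Lipofectamine. No untransfected sample was analysed here, so transfection is common to both groups. The label field names Cy3 for samples 1, 3 and 5 and Cy5 for samples 2, 4 and 6. The labels do not state whether samples were cultured separately, and the spread behind the p-values may thus be technical. In bulk RNA, fewer cells with a transcript and less of it per cell cannot be told apart.

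eIF4F assembles on the cap at the start of an mRNA and brings in the ribosome. EIF4E is the subunit that holds the cap, the EIF4G proteins are the scaffold and EIF4A1 is the helicase that unwinds the leader. The EIF4E-binding proteins compete with EIF4G for EIF4E, and phosphorylation by mTORC1 releases them. EIF4E is a recognised oncogene in epithelial tumours, and its activity is set largely by these proteins rather than by its transcript alone.

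The antisense strands of both siRNAs are printed here as the labels give them, because they define the groups; capitals mark the seed, bases 2 to 8.
Control siRNA antisense: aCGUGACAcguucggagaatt
MTA2 siRNA antisense: aUAGACGUaaucucccacctt

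EIF4E, the member with the widest difference in these data, has a promoter known as a target of MYC through its E-boxes. The 250 bases before its start in RefSeq's table (GRCh38.p14, chr4:98929134-98929383, minus strand) are printed for that reason, 5′ to 3′, with each CACGTG in capitals.
EIF4E promoter: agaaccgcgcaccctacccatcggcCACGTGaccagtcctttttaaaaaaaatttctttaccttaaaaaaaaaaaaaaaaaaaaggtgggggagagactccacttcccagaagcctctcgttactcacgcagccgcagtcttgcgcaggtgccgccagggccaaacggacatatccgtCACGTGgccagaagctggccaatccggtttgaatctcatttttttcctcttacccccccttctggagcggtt
CACGTG, which reads the same on both strands, begins 225 and 72 bases before the EIF4E start. Of the members, 9 had 16 such windows in the table, and 3 of the windows held it. The others were 1 window of EIF4G1, with the sites shown in 30 bases each, and the window of EIF4EBP3, with a site that begins 13 bases before the start.
EIF4G1, distal site: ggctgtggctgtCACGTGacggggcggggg
EIF4G1, proximal site: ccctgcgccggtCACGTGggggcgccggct
EIF4EBP3 site: tgccagcagctgCACGTGgtcggct
Over all 35116 windows of that length, 6.34% held CACGTG and 0.535% held it at least 2 times. No binding was measured in this study, and the matches describe letters only.

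Sample medians of the log2 intensities lay between 10.44 and 10.45. Between 11 and 120 rows per sample read under 1, the most in control sample 1 (120) and in MTA2 siRNA sample 4 (72). MTA2 itself, in 1 row, read 12.92, 13.13 and 13.004 in the controls and 13.12, 13.18 and 13.52 in samples 4 to 6, so the samples labelled MTA2 siRNA did not read lower for the targeted gene. Of 10 squamous epithelial markers, the keratins KRT5, KRT14 and KRT17 stood at or above 93.3% of genes, but TP63 and SOX2 at or above only 26.9% and 31.2%. Markers of leukocytes, endothelium, fibroblasts and liver were not near 0: the lowest of 12, COL3A1, averaged 9.59. Between the groups, 0 of the 10 squamous and 0 of the 12 other markers passed the limma test; the squamous markers with the smallest p were KRT17 (difference -0.42, SE 0.27) and PERP (-0.53, SE 0.35), and the others were APOA1 of liver (-0.63, SE 0.23) and CD79A of B cells (-0.69, SE 0.28), both at an unadjusted p under 0.05. Intensity therefore did not separate the labelled cell type from others, and a level here is a reading of a row's own probes.

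No member passed the test between the groups. In the limma fit across 19148 genes, 0 of 10 members had an adjusted p under 0.05, and 0% of all genes did. EIF4E and EIF4EBP1 had an unadjusted p under 0.05, which 3.75% of all genes had. The same 2 members had groups that did not overlap, against 9.43% of all genes. Row by row, 0 of 27 passed (0% of all rows), 3 had an unadjusted p under 0.05 (3.67% of all rows) and 4 did not overlap between groups (8.83%). The median difference over the members, MTA2 siRNA minus control on the log2 scale, was -0.0062, and over all genes it was 0.029. For 8 of 10 members the 95% interval of the mean of rows excluded a 2-fold change both upward and downward, but only 16 of 27 rows did so singly. The mean of EIF4A1 was among the 8, whereas its row NM_001416 had an interval of -1.49 to 0.25. The share over all genes was not counted.

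EIF4E, the cap-binding subunit, was the dimmest member by far. Its 3 rows ranked 18, 42 and 281 from the dimmest of 34558, whereas the other 24 member rows lay between 19.5% and 91.5% of the way up the same ranking. The brightest member row belonged to EIF4EBP2. Levels of different rows come from different probes, so the ranks do not order the transcripts by amount.

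**Figure D1:**
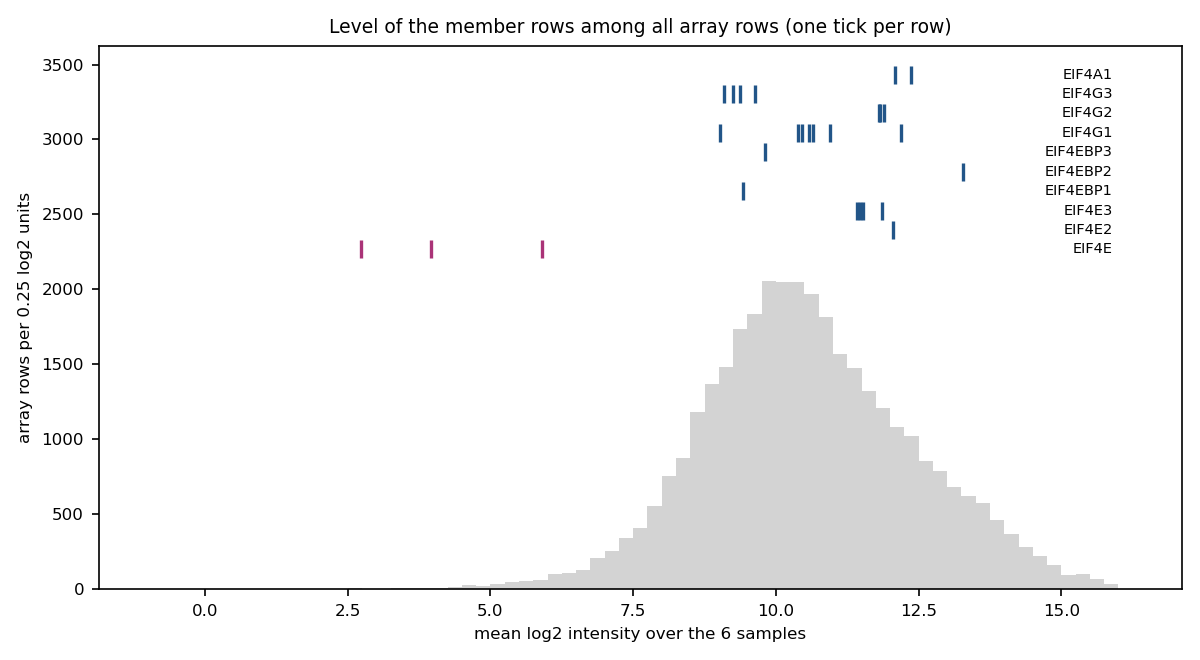
Histogram of the mean log2 intensity of all 34558 array rows over the 6 samples, with 1 tick above it for each member row. The 3 EIF4E rows stand in the low tail, and the 24 rows of the other members lie within the body of the distribution.

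The dimmest EIF4E row (NM_001130679) separated the groups. It read -0.40, -0.16 and -0.10 in the controls and 6.74, 5.52 and 4.82 in MTA2 siRNA samples 4, 5 and 6. In intensity units these are 0.756, 0.894 and 0.931 against 106.9, 45.8 and 28.3, on arrays whose median row read between 1391 and 1399. Every control was thus under 1 unit and every MTA2 siRNA sample well above it, although still in the low tail. The difference was 5.92 (SE 0.45, 95% interval 4.85 to 6.98, limma adjusted p = 0.0951 over all rows), the smallest p of any row on the array, and it did not pass 0.05. Since the controls sat at the floor, these log2 values carry no settled size: with 50 intensity units added to every value before taking logarithms, a setting chosen after the data were seen, the difference was 1.05 (interval 0.44 to 1.67, limma adjusted p = 0.972). It was 5.77 within Cy3, 5.94 within Cy5 and 5.86 with dye as a block (limma adjusted p = 0.709). Without sample 4 or without sample 6 the row passed (limma adjusted p = 0.0258 and 0.0355), as 0.00289% and 0.00579% of all rows did, and over all alternatives its adjusted p ran from 0.0258 to 0.999. By exact permutation over the samples the two-sided p was 0.10, the smallest that 3 against 3 can give.

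Such a step was rare on this array. With limits chosen after the values were seen, 192 of 34558 rows had any reading under 1, and 3 rows had all 3 controls under 1. Among those 3, SLC4A1 was under 1 in all 6 samples and LOC391322 was under 1 in sample 6 as well. The EIF4E row was the only one of 34558 with every control under 1 and every MTA2 siRNA sample above 4, and 0 rows showed the opposite.

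The middle EIF4E row (NM_001130678) was high in only 1 control. The row read 0.85 and 0.37 in the Cy3 controls 1 and 3 but 6.34 in the Cy5 control 2, above the 4.81, 5.57 and 5.85 of samples 4 to 6. With 1 Cy5 control, dye and that sample cannot be told apart in the controls. Among samples 4 to 6, the Cy3 sample 5 lay between the Cy5 samples. Control sample 2 was the highest of the 6, so the groups overlapped. The difference was 2.89 (SE 1.45, interval -0.52 to 6.30), with 4.96 within Cy3 and -1.01 within Cy5, and it was 4.80 without control sample 2 and 1.81 without control sample 3. In 11 rows of the array both Cy3 controls read under 1 while control sample 2 read above 4.

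The brightest EIF4E row (NM_001968) read 4.33, 6.09 and 6.18 in the controls and 5.27, 6.07 and 7.45 in samples 4 to 6. Its groups overlapped, with the lowest value in control sample 1 and the highest in sample 6. The difference was 0.73 (SE 0.67, interval -0.85 to 2.31). Single samples set its size: it was 0.13 without control sample 1, 0.14 without sample 6 and 1.23 without sample 4.

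**Figure D2:**
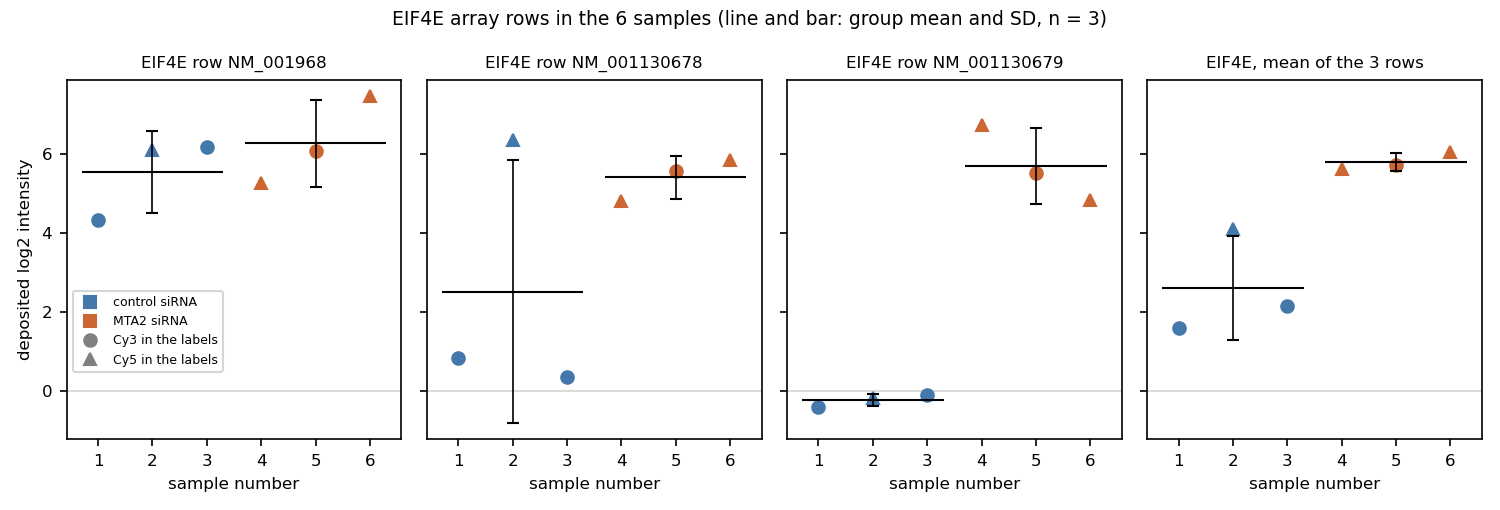
Deposited log2 intensity of the 3 EIF4E rows and of their mean in samples 1 to 6. Colour gives the siRNA and marker shape the dye in the labels; lines and bars are group means and SDs (n = 3). Only the dimmest row keeps all 3 controls near 0 and all 3 MTA2 siRNA samples above 4.

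Averaged over its rows, EIF4E read 1.59, 4.09 and 2.15 in the controls and 5.61, 5.72 and 6.04 in samples 4 to 6. The difference of these averages was 3.18 (SE 0.60, interval 1.77 to 4.59, limma adjusted p = 0.943), with 2.79 when dye was a block, 3.85 within Cy3 and 1.74 within Cy5. Without control sample 2, the only Cy5 control, it was 3.92 and passed, in a fit where 0.0157% of all genes did (limma adjusted p = 0.0226, and over the alternatives 0.0226 to 1.00). That fit left only Cy3 controls against samples of both dyes, so siRNA and dye cannot be fully told apart in it. The Cy5 minus Cy3 difference of EIF4E, with all samples and siRNA in the model, was 1.16 (SE 0.49). The size depended on how near-zero readings were treated. With the same 50 units added, it was 0.62 (interval 0.13 to 1.12, limma adjusted p = 0.949). In intensity units the 3 rows summed to 22.7, 149.9 and 74.6 in the controls and to 173.6, 160.5 and 261.2 in samples 4 to 6. These sums did not overlap, with control sample 2 the closest. Mean and sum both include the dimmest row, and each of the remaining EIF4E rows overlapped between the groups on its own.

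The other cap-binding members showed no such separation. EIF4E2, also called 4EHP, a cap-binding protein that does not join eIF4G and represses translation, read 11.99, 12.26 and 11.71 in the controls and 12.07, 12.07 and 12.25 in samples 4 to 6. Its MTA2 siRNA values all fell inside the control range. The difference was 0.15 (SE 0.19, interval -0.30 to 0.59), with values of 0.22 within Cy3 and -0.095 within Cy5. EIF4E3, an atypical cap-binding member, averaged 11.53, 11.61 and 11.56 in the controls and 11.59, 11.42 and 11.68 in the others over its 4 rows. That average hid rows that moved apart, with differences from -0.31 to 0.57. The row at 0.57 (NM_001134651) read 11.33, 10.95 and 11.27 in the controls, 12.01 and 11.98 in the Cy5 samples 4 and 6, and 11.28 in the Cy3 sample 5. The difference in that row was -0.025 within Cy3 and 1.05 within Cy5. EIF4E1B, the oocyte paralog, which is no member, differed by -0.22 (SE 0.26) in its 1 row.

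EIF4EBP1, the main mTORC1-regulated inhibitor of EIF4E, read lower in all 3 samples labelled MTA2 siRNA, short of the threshold. Its 1 row read 9.78, 9.81 and 9.48 in the controls and 9.19, 9.11 and 9.17 in samples 4 to 6. The MTA2 siRNA samples lay within 0.1 of each other and below every control. The difference was -0.53 (SE 0.16, interval -0.91 to -0.16), 0.69 times the control level, with a limma adjusted p = 0.943 and an exact two-sided permutation p = 0.10. It was -0.52 within Cy3, -0.63 within Cy5 and -0.58 with dye as a block, and between -0.64 and -0.48 with each sample left out. Unlike that of EIF4E, its value was little moved by the 50 added units, at -0.50. Its row ranked 26.7% of the way up the array.

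EIF4EBP2, the form of the inhibitor prominent in brain, read 13.43, 12.95 and 13.45 in the controls and 12.97, 13.64 and 13.20 in samples 4 to 6. The 3 Cy3 samples were the 3 highest, and the siRNA groups overlapped. It differed by -0.52 between Cy5 and Cy3 (SE 0.14, limma adjusted p = 0.177), and by -0.0079 between the siRNA groups (interval -0.57 to 0.55) or 0.17 with dye as a block. EIF4EBP3, the remaining binding protein, read 9.43, 9.80 and 9.84 in the controls and 10.04, 9.80 and 9.96 in the others. Only sample 5 fell inside the control range, and the difference was 0.24 (SE 0.18, interval -0.18 to 0.67). The read-through transcript ANKHD1-EIF4EBP3, which shares sequence with EIF4EBP3, had a row of its own that differed by 0.27 (SE 0.28). The probe sequences were not used here, so signal from both transcripts in either row cannot be told apart.

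**Figure D3:**
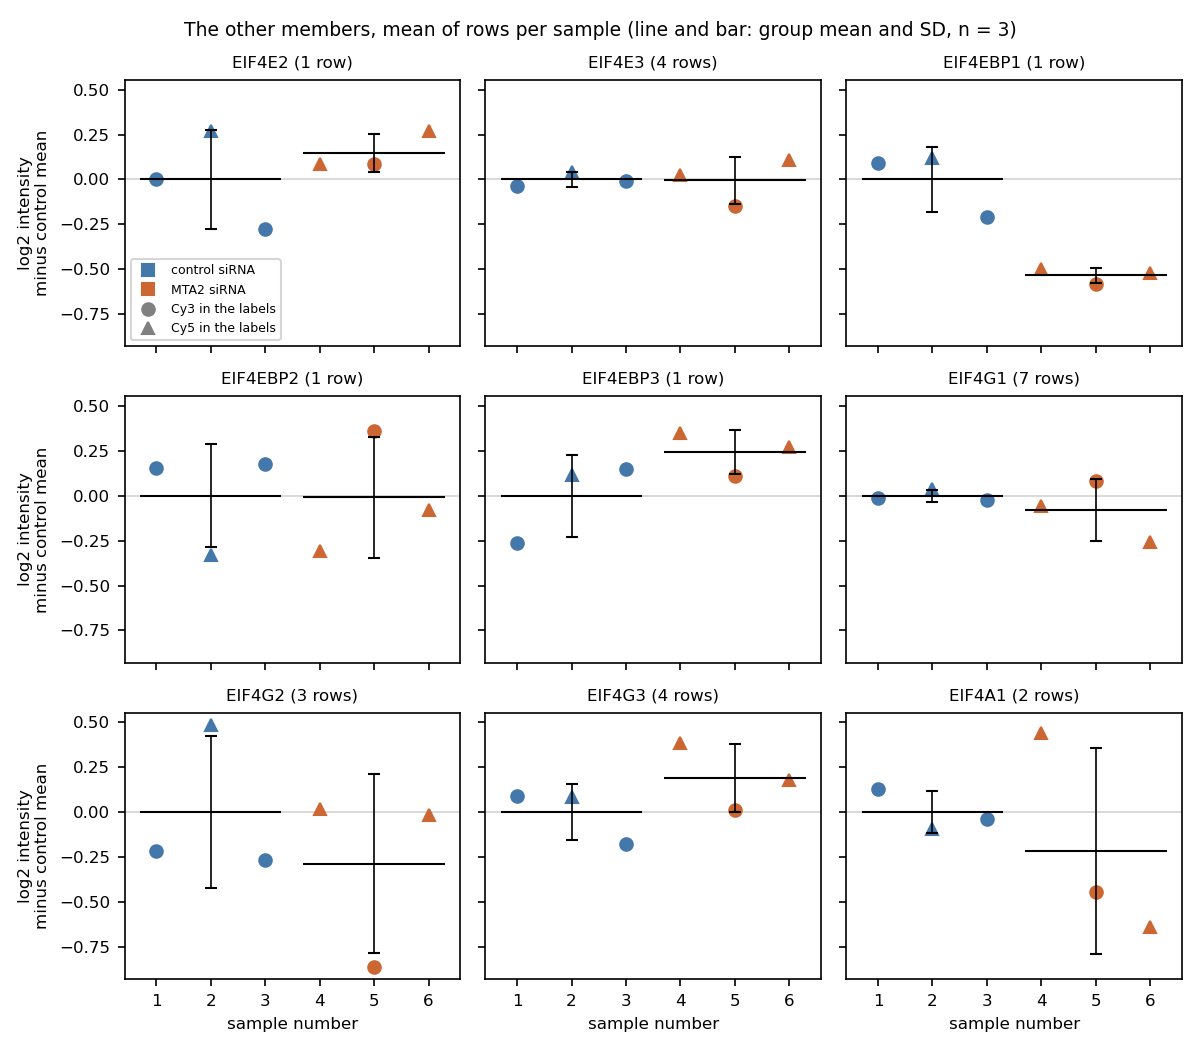
Log2 intensity of the 9 members other than EIF4E in each sample, as the mean of their rows minus the control mean. Colour gives the siRNA and shape the dye, and lines and bars are group means and SDs (n = 3). EIF4EBP1 alone separates the groups, with samples 4 to 6 below every control, while EIF4EBP2 and EIF4G2 sort by dye.

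Among the scaffolds, EIF4G1, the main eIF4G of growing cells, had 7 rows. Their mean read 10.63, 10.68 and 10.62 in the controls and 10.59, 10.73 and 10.38 in samples 4 to 6, a difference of -0.078 (SE 0.16, interval -0.45 to 0.30). By row, 3 differences were above 0 and 4 below, from -0.52 to 0.37. The row at -0.52 (NM_198242) read 10.67, 10.68 and 10.80 in the controls, 10.72 and 10.51 in samples 4 and 5 and 9.37 in sample 6. That low reading set the difference, which was -0.10 without sample 6. The brightest row (NM_004953), at 12.20 on average, differed by 0.15 (SE 0.19).

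EIF4G2, also called DAP5, which lacks the EIF4E-binding part of the scaffold and serves cap-independent initiation, gave the most concordant rows. All 3 differed downward, from -0.36 to -0.18, and their mean read 11.77, 12.47 and 11.71 in the controls and 12.002, 11.12 and 11.97 in samples 4 to 6. Within each dye the MTA2 siRNA samples lay below the controls, but the Cy5 samples lay above the Cy3 samples of either group. The difference was -0.29 (SE 0.32, interval -1.04 to 0.46) without a dye term and -0.55 (SE 0.13, interval -0.88 to -0.23, limma adjusted p = 0.874) with dye as a block. It was -0.62 within Cy3 and -0.49 within Cy5. The Cy5 minus Cy3 difference of EIF4G2 was 0.80 (SE 0.13, limma adjusted p = 0.107), and 0.345% of all genes passed for dye. Each comparison within a dye sets 1 sample against 2. Without sample 5 the difference, with no dye term, was 0.00096, and without control sample 2 it was -0.044.

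EIF4G3, or eIF4GII, a second scaffold able to replace EIF4G1 in part, had rows with differences of either sign. Its row NM_001198803 read 8.60, 9.15 and 8.66 in the controls and 9.42, 9.17 and 9.54 in samples 4 to 6. The groups did not overlap, although sample 5 exceeded control sample 2 by little, and the difference was 0.57 (SE 0.22, interval 0.046 to 1.10, limma adjusted p = 0.967). The row NM_001198802 read 9.40, 9.04 and 9.09 against 9.61, 9.50 and 9.55, again without overlap, and differed by 0.37 (SE 0.19). The remaining rows differed by -0.10 and -0.078, so the mean of EIF4G3 differed by only 0.19 (SE 0.17, interval -0.22 to 0.60).

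EIF4A1, the helicase of eIF4F, also had rows of opposite sign. NM_001416 read 12.36, 12.36 and 12.47 in the controls and 12.57, 11.71 and 11.04 in samples 4 to 6. Samples 5 and 6 were below every control and sample 4 above them, and the difference of -0.62 (SE 0.37, interval -1.49 to 0.25) was -0.25 without sample 6 and -1.02 without sample 4. NM_001204510 differed by 0.19 (SE 0.28), and the mean of both by -0.22 (SE 0.29). The paralog EIF4A2, no member, differed by -0.085 (SE 0.22).

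**Figure D4:**
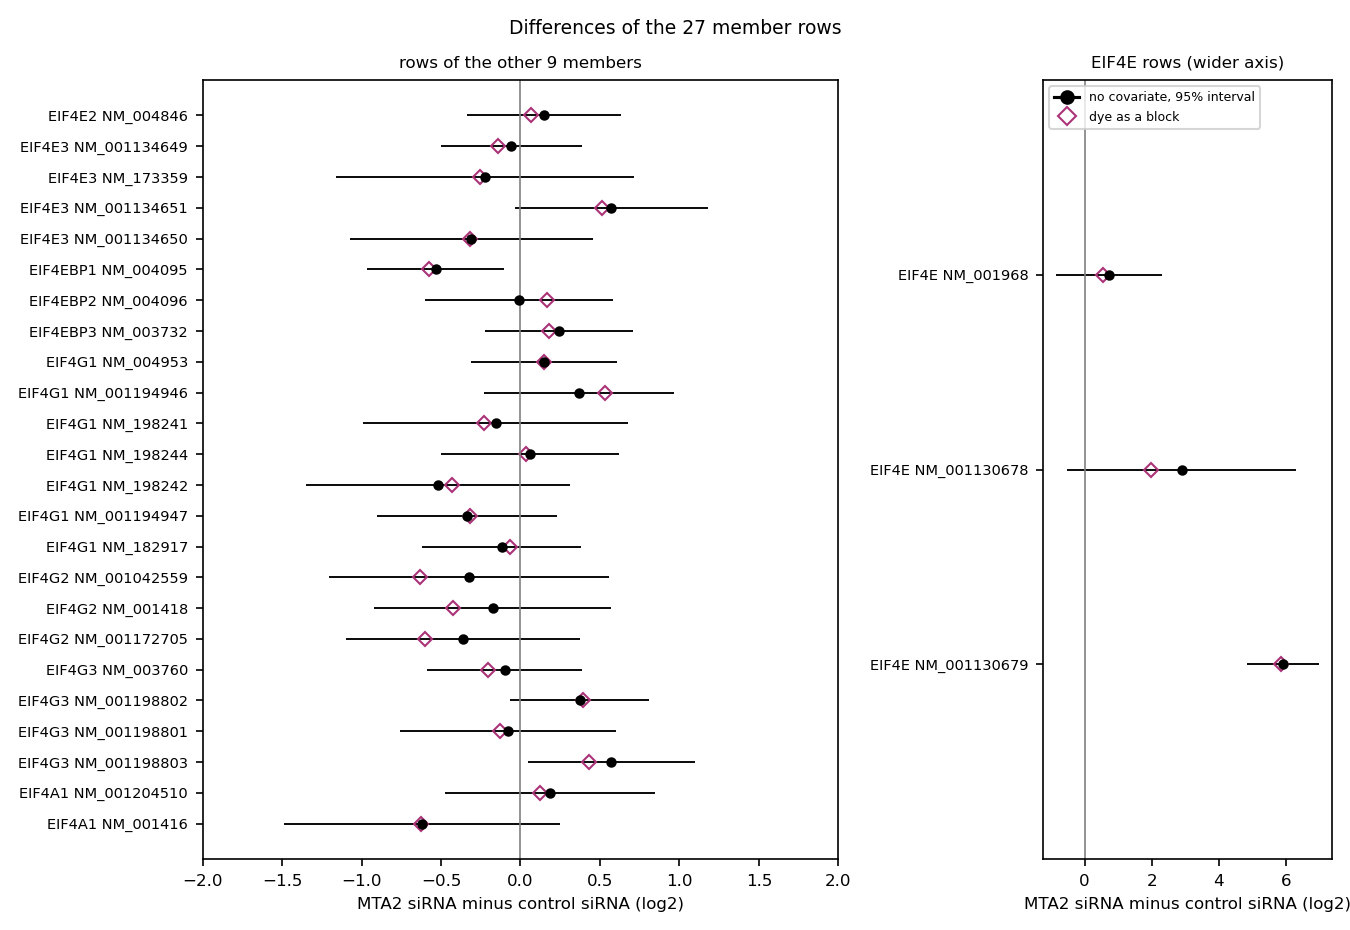
Difference of each of the 27 member rows, MTA2 siRNA minus control on the log2 scale. Filled points and bars are the fit with no covariate and its 95% interval, and open diamonds the fit with dye as a block. The interval excludes 0 in 3 rows, 1 each of EIF4EBP1, EIF4G3 and EIF4E, and among the rows outside EIF4E those of EIF4G2 shift furthest downward with dye in the model.

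The genes around eIF4F gave 0 calls. Of 28 eIF4E partners and scanning factors, including the eIF3 subunits, 0 passed and 0 had an unadjusted limma p under 0.05, with 15 above 0 and 13 below (54.5% of all genes were above 0) and a median of 0.015. LARP1, which binds the cap of ribosomal protein mRNAs, read 9.87, 9.86 and 9.80 in the controls and 9.97, 10.12 and 10.10 in samples 4 to 6, a difference of 0.22 (SE 0.14). EIF3I, an eIF3 subunit, differed by 0.44 (SE 0.27). Of 24 genes of mTORC1, S6 kinase and MNK signalling, which act on EIF4E and its binding proteins, 0 passed and 0 had an unadjusted p under 0.05, with a median of 0.057. AKT1S1, the mTORC1 inhibitor PRAS40, differed by -0.29 (SE 0.15) with no overlap, and the Rag GTPase RRAGC by 0.33 (SE 0.20).

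Of 15 genes whose mRNAs are known to be sensitive to eIF4E activity, 0 passed, 1 had an unadjusted p under 0.05, and 4 were above 0 and 11 below, with a median of -0.16. ODC1, the rate-limiting enzyme of polyamine synthesis, read 10.44, 9.92 and 10.22 in the controls and 11.01, 10.63 and 11.00 in samples 4 to 6. All 3 of the latter lay above the controls, and the difference was 0.68 (SE 0.20, interval 0.21 to 1.16, limma adjusted p = 0.943). NBN, a DNA repair protein, differed by -0.73 (SE 0.32). That sensitivity concerns translation and export, which an array of total RNA does not measure.

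By profile over the 6 samples, the genes most like EIF4E were EID2B, ARL6, ACTBL2, XKR6 and CA12. Likeness was the root mean square distance between values centred on each gene's own mean, and it ran from 0.62 to 0.88 for these 5, against a median of 1.77 over all genes. A gene with equal values in all 6 samples would lie at 1.77 too, the root mean square of the centred EIF4E values. All 5 were dim, with means of 4.33 to 6.85, and each had its lowest value in control sample 1. They were picked by closeness to EIF4E, itself dim and lowest in control sample 1, so these traits are not results separate from that choice. EID2B, the closest, read 2.54, 5.41 and 3.14 in the controls and 5.27, 6.18 and 5.82 in samples 4 to 6. Control sample 1 also held the most rows under 1, and the part of that low tail in these profiles was not tested.

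**Figure D5:**
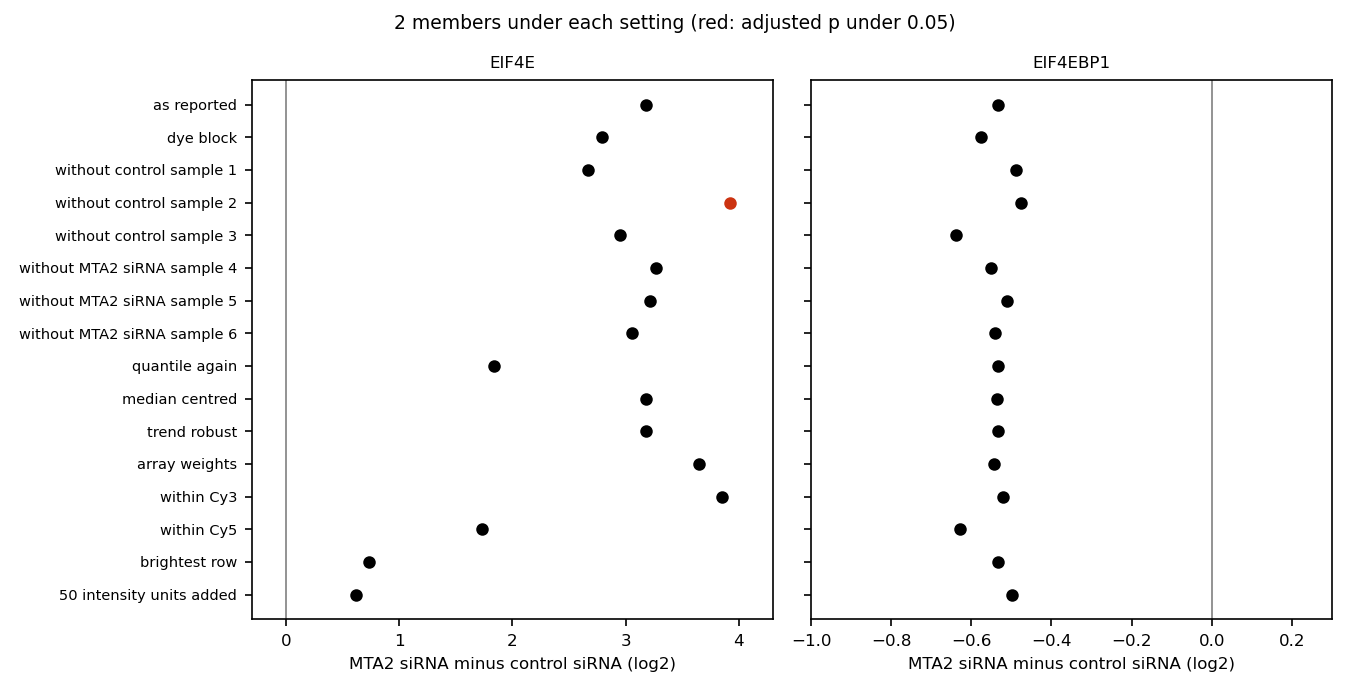
Difference of EIF4E and of EIF4EBP1 (mean of rows, log2) under the settings tried in which both have a value. The second deposited table, which held the same values, is not drawn. Red marks an adjusted p under 0.05, reached by EIF4E without control sample 2 alone. EIF4E ranges from 0.62 to 3.92 and EIF4EBP1 from -0.64 to -0.48.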

How the data were processed

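Per the labels' protocols, total RNA gave double-stranded cDNA, which a NimbleGen one-colour kit labelled for array hybridisation. The authors deposited log2 intensities, 1 row per RefSeq transcript. For background correction, normalisation and genome build, the sources used here name nothing. Both deposited tables held the same values. Members were taken by deposited symbol. Other rows were named through RefSeq (GRCh38.p14, names only), 33809 by accession, 462 by current and 206 by older symbol, and 81 kept the deposited name. Rows of a gene were averaged. The group difference was fitted in R 4.3.3 by limma 3.58.1 (lmFit, then eBayes, two-sided, no filter or covariate), adjusted by Benjamini-Hochberg over all 19148 genes or all 34558 rows, threshold 0.05. The code was tested on simulated data. Single genes were also tested with the exact permutation test. Alternatives covered normalisation, dye, dim genes, rows, variance model, array weights, thresholds and each sample left out. The members, lists and tests were chosen with earlier results of these data known. Text names every member, MTA2, the 2 genes per list with the smallest p and the 5 genes most like EIF4E. Related genes, markers given by level, and the array rows beside the EIF4E step, were named after their values were seen. Array number limits the precision.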

Additional observations from a re-analysis of the deposited data

How the results depend on the processing

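Adding 50 intensity units was chosen after the data were seen. Of the 10 members, EIF4E, EIF4EBP1 and EIF4EBP3 kept their sign in every setting that gave them a value. EIF4E became a call without control sample 2 (3.92), in a range of 2.67 to 3.92 with each sample left out. With quantile normalisation applied to the deposited values, EIF4E differed by 1.84, against 3.18 in the main fit. Its rows NM_001130678 and NM_001968 then differed by 0.72 and 0.21, against 2.89 and 0.73. The difference of its row NM_001130679 shrank as well. Whether the unequal low tails of the samples account for this was not tested. The number of members called was 0 or 1 with each sample left out. The 1 came without control sample 2, where 0.0157% of all genes passed. At an unadjusted p under 0.05 the number was 2, and 3.75% of all genes had such a p. The number of member rows called was 0 or 1 with each sample left out. The 1 came without sample 4 or without sample 6, where 0.00289% and 0.00579% of all rows passed. At an adjusted p of 0.10 the number of rows was 1 (the dimmest EIF4E row), and the share over all rows was not counted. At an unadjusted p under 0.05 it was 3, and 3.67% of all rows had such a p. Pathway genes gave 0 calls in each of the settings run. Signs turned as follows, and the cause was not tested. EIF4E2 was -0.095 within Cy5. EIF4E3 was 0.030 with array weights, 0.025 within Cy5 and -0.061 to 0.068 with each sample left out. EIF4EBP2 was 0.17 with dye as a block, 0.19 within Cy3, 0.14 within Cy5 and -0.19 to 0.14 with each sample left out. EIF4G1 was 0.10 within Cy3, 0.15 in its brightest row and -0.16 to 0.012 with each sample left out, and EIF4G2 was -0.44 to 0.00096 with each left out. In the brightest row EIF4G3 was -0.10 and EIF4A1 0.19. Of 27 rows, 12 kept their sign in all settings that gave a value and 15 did not. With only genes above the median level, EIF4E, EIF4EBP1, EIF4EBP3 and EIF4G3 had no value, being dimmer. Fits within a dye hold a lone sample in 1 arm, whose spread is assumed equal to that of the other arm. No paired analysis was run, because the labels number the samples from 1 to 6 and name no pairs. Whether any samples were paired is thus not known.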
